A study of Mus musculus with 47 samples.

Results

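The genes described here encode the mitochondrial carriers of the Slc25 family. Their members were taken as the symbols Slc25a followed by a number, with at least 20 tags in total in the table of a tissue; 1 further symbol of this form was not analysed here. Of 43 symbols in the tables, 40 reached that total in at least 1 tissue and 34 in all 4 tissues. There were 38 members in inguinal white fat, 37 in brown fat, 39 in liver and 35 in muscle, among 26608 genes counted. Slc25a18, Slc25a41 and Slc25a43 reached it nowhere. Nearest the limit, Slc25a2 had 14 tags in inguinal fat and was outside, and Slc25a3 had 23 and was inside. The nearest pairs outside and inside were Slc25a2 (16) and Slc25a3 (34) in brown fat, Slc25a31 (13) and Slc25a14 (27) in liver, and Slc25a21 (18) and Slc25a2 (39) in muscle.

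Slc25 carriers sit, with few exceptions, in the inner mitochondrial membrane and exchange metabolites, nucleotides, amino acids and cofactors between the cytosol and the matrix. They set which substrates reach the tricarboxylic acid cycle, the respiratory chain and the matrix enzymes of amino acid, folate and S-adenosylmethionine metabolism. In brown fat the family is known for uncoupling protein 1, a carrier without the Slc25a symbol that turns the proton gradient into heat. In liver it is known for the ornithine and aspartate carriers of the urea cycle.

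The animals were male C57BL/6J mice with no genetic change. They ate a methionine-restricted diet (MR) or a control diet (CON) freely for 11 weeks from 5 weeks of age, lived at 23 °C and were fasted for 5 h before the tissues were taken. Libraries came from inguinal white adipose tissue (IWAT, 6 MR and 6 CON), interscapular brown adipose tissue (BAT, 6 MR and 6 CON), liver (6 MR and 6 CON) and gastrocnemius muscle (SM, 5 MR and 6 CON). The animal numbers of the labels recur in the tissues, so the 47 libraries describe 12 mice.

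The assay counted a short tag from each transcript (SOLiD SAGE), not reads along its length, so a level in CPM, the usual scaling of a count to the library total, can be set beside that of another gene, within the limits of tag recovery. In the standard protocol the tag starts at the CATG site nearest the 3′ end. Sequences at that site were read from GENCODE vM1 transcripts for 43 of 43 symbols, with 27 bases each except for Slc25a27, whose transcript left 19. As whole sequences, 43 of these occurred at a CATG site of no other protein-coding gene. For Slc25a27 this does not show whether its 19 bases begin a longer tag of another gene. The tags of the carriers that carry the results are shown here, since they are what was counted, with the CATG site in capitals.
Slc25a34: CATGtgggtcacggagcagagccactg
Slc25a32: CATGgggttcaccttgatacttatgtc
Slc25a42: CATGgtcactgtccagtagctctgtgg
Slc25a33: CATGgtggtaggtttatctgtaatctg
Slc25a4: CATGcttaggaagtgccaggttttgtg
Slc25a5: CATGttgtataatataccatatcttga
Slc25a47: CATGaagatcctggaacctgggtcagg
Slc25a3: CATGgtttattaaatatggataaacac

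Library depth ran from 4887004 to 13117537 tags. Where a carrier had 0 tags, its level could still be as high as 0.229 CPM in the deepest library and 0.614 CPM in the shallowest (3 tags, counting error only). The shallowest library had 4887004 tags in IWAT, 5252688 in BAT, 7710740 in liver and 7756320 in SM.

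Libraries are named by diet and mouse number. Of the 47, 4 stood apart from the rest of their tissue, namely MR3116, CON3106 and CON3115 of IWAT, with MR3101 of SM. Of 32 carriers with a median of at least 1 CPM in the other libraries of both tissues, 7 lay more than 3-fold under every other IWAT library in all of MR3116, CON3106 and CON3115, with fewer than 3 tags counted as 3. In MR3101, 11 lay more than 3-fold under every other muscle library, and 6 were low in both tissues, among them Slc25a1, Slc25a11, Slc25a25, Slc25a28 and Slc25a39. Slc25a1, the citrate carrier, had 3.86 CPM in MR3116, 3.79 in CON3106 and 2.54 in CON3115, against 370 to 1060 in the other 9 IWAT libraries. Slc25a11, the oxoglutarate-malate carrier, had 1.80 CPM in MR3101 muscle, against 287 to 432 in the other muscle libraries. The pattern was not particular to carriers. Over 10450 genes compared in the same way, 17.1% were low in the 3 IWAT libraries and 37.9% in MR3101 muscle. Of the genes low in IWAT, 87.9% were low in MR3101 muscle as well, which is 39.6% of the genes low there. The transcripts of the 6 carriers had a GC content of 53.8 to 61.5% (median 57.4%), and those of the 20 carriers low in neither tissue had 39.0 to 60.6% (median 48.2%). Values without these libraries stand beside the results of IWAT and SM where they change a call or a size.

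**Figure D1:**
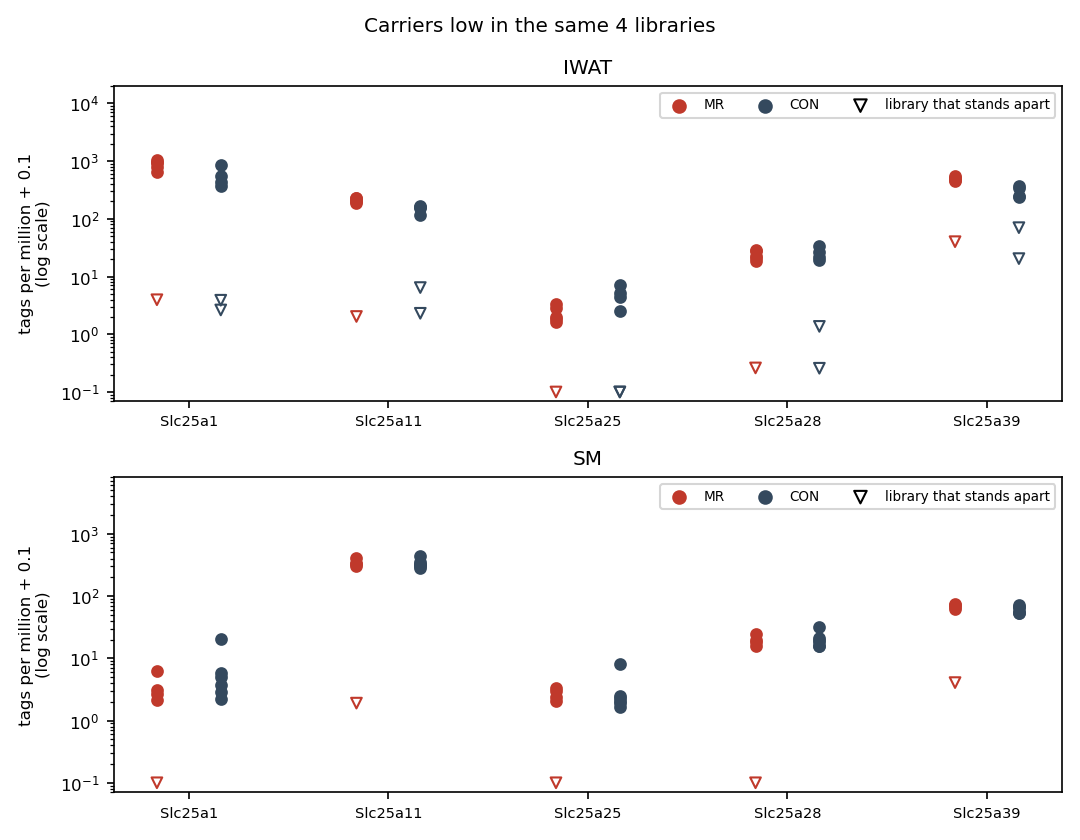
Level per library of 5 of the carriers that were low in the same 4 libraries, in IWAT and in SM, on a log axis of CPM plus 0.1, with MR to the left of CON for each gene. Open triangles are the libraries that stand apart, and each of them lies under every filled circle of its gene and tissue.

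The label of each tissue was read against defining markers. Summed hepatocyte markers had 94200 to 184000 CPM in MR livers and 137000 to 219000 in CON livers. Summed muscle markers had 103500 to 120000 CPM in 4 MR muscle libraries but 10700 in MR3101, against 86100 to 139000 in CON muscle.

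The carriers took 1.03 ± 0.428% of the tags in MR muscle and 1.31 ± 0.455% in CON muscle (SD, n = 5 and 6), the highest share among the tissues. Most of the muscle share was Slc25a4, with a mean of 11920 CPM in CON muscle, where the next carrier, Slc25a12, had 361. The muscle share is therefore not a level of the carriers in general, and shares without Slc25a4 were not computed. The share was 0.450 ± 0.0392% in MR BAT and 0.514 ± 0.094% in CON BAT, 0.362 ± 0.0745% in MR IWAT and 0.261 ± 0.0768% in CON IWAT, and 0.373 ± 0.0373% in MR liver and 0.341 ± 0.0316% in CON liver (SD, n = 6 each). The ranges of MR and CON overlapped in each tissue.

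Which tissue carried which carrier on the control diet was the first comparison. Of 36 carriers in the joint fit of 47 libraries, 35 differed among the 4 tissues at an adjusted p under 0.05 (edgeR quasi-likelihood F test, Benjamini-Hochberg), where 77.6% of all genes tested did. The exception was Slc25a28, an iron carrier of mitochondria (adjusted p = 0.229), which was low in the libraries that stand apart. Without these 4 and CON3107 of IWAT, which had the highest lymphocyte markers there, Slc25a28 differed as well (adjusted p = 0.000153), where 84.6% of all genes did. By mean CPM on the control diet, 17 of the 40 members were highest in BAT, 13 in liver, 6 in SM and 4 in IWAT. The 40 include Slc25a2, Slc25a3, Slc25a14 and Slc25a31, which had 2.5 to 5.5 mean tags in their highest tissue and are not in the joint fit. On the TMM scale of the fit, 12 of 36 were highest in BAT, 15 in liver, 7 in SM and 2 in IWAT, so the tissue with the most carriers at their highest level depended on the scaling. The order of tissues below is by mean CPM.

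**Figure D2:**
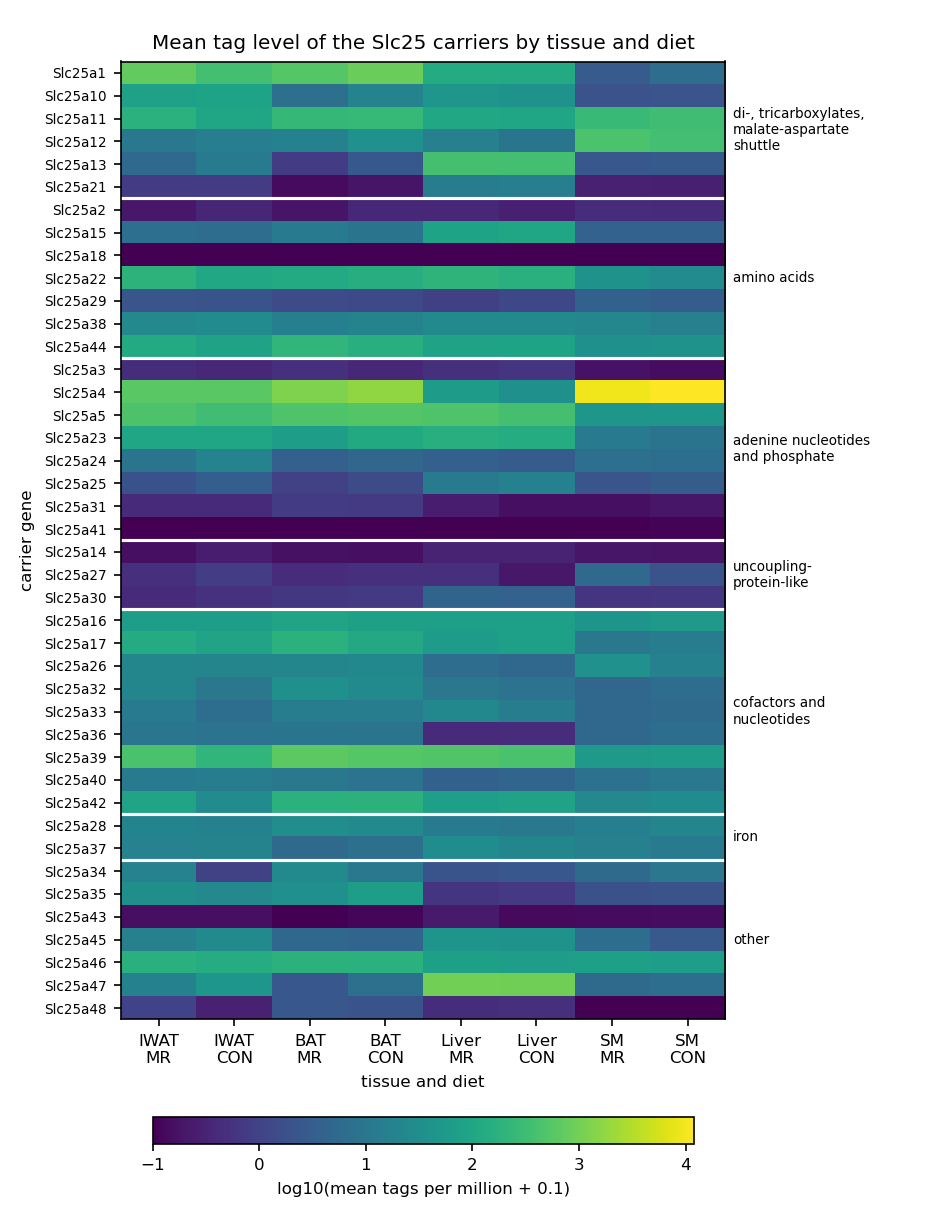
Mean level of the carriers in each tissue, MR to the left of CON, coloured by log10 of the mean CPM plus 0.1 and ordered by the role of the carrier. Slc25a4 in muscle has the brightest cells, and Slc25a47 and Slc25a13 are brighter in liver than in the other tissues on both diets.

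Liver led for carriers of the urea cycle and of amino acid breakdown. Slc25a13, the liver aspartate-glutamate carrier (citrin), averaged 368 ± 32.9 CPM in CON liver and 12.5 ± 20.7 in CON IWAT, the tissue next to it (SD, n = 6 each), and the difference was 5.64 ± 0.734 on the log2 scale (SE, adjusted p = 1.53e-08, edgeR). Slc25a47, a carrier known from liver, averaged 966 ± 206 in CON liver and 46.8 ± 86.9 in CON IWAT (adjusted p = 2.67e-07). Slc25a15, the ornithine carrier, averaged 101 ± 30.2 in CON liver and 9.04 ± 1.06 in CON BAT (adjusted p = 4.75e-14). Slc25a21, which carries oxoadipate from lysine and tryptophan breakdown, averaged 14.8 ± 3.45 in CON liver and 0.67 ± 0.759 in CON IWAT (adjusted p = 3.35e-09). The IWAT means of Slc25a13, Slc25a47 and Slc25a21 rested on CON3103, a library with 11100 CPM of summed hepatocyte markers. Over the other 5 CON IWAT libraries they were 4.10 ± 1.98, 11.4 ± 9.22 and 0.383 ± 0.343. With that mouse left out of all tissues, liver still exceeded IWAT for each (adjusted p = 9.05e-11, 7.97e-11 and 1.42e-08).

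Muscle was led by the ADP/ATP carrier. Slc25a4, the main ADP/ATP translocase of muscle and heart, ranged from 8479 to 19570 CPM in CON muscle with a median of 9274, against a range of 847 to 3678 in CON BAT. Muscle exceeded BAT by 3.15 ± 0.579 on the log2 scale (SE, adjusted p = 2.09e-05, edgeR), BAT exceeded IWAT (adjusted p = 0.0137, and 0.0681 without the 5 libraries named above) and IWAT exceeded liver (adjusted p = 4.66e-06). Slc25a5, the translocase of most other tissues, had another order, with 523 ± 59.5 in CON BAT, 375 ± 77.4 in CON liver, 336 ± 83.5 in CON IWAT and 48.2 ± 13.2 in CON muscle (SD, n = 6 each). BAT and liver did not differ for it beyond their spread (adjusted p = 0.939). Slc25a12, the aspartate-glutamate carrier of muscle and brain, averaged 361 ± 117 in CON muscle and 37.6 ± 49.6 in CON BAT (SD, n = 6 each, adjusted p = 2.41e-05). Slc25a29, a carrier of basic amino acids, averaged 3.02 ± 0.428 in CON muscle and 1.94 ± 2.01 in CON IWAT (adjusted p = 0.0452, and 0.107 without mouse CON3103). Its call among the 4 tissues was lost without any of 8 of the 12 mice.

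Several carriers had their highest mean in BAT. Slc25a35, whose substrate is not settled, averaged 69.5 ± 16.7 CPM in CON BAT and 24.4 ± 21.0 in CON IWAT (adjusted p = 0.0221). The CON IWAT mean includes CON3106 and CON3115, which stand apart. In the IWAT libraries that stand apart it had at most 0.423 CPM, against 24.4 to 53.8 in the other IWAT libraries. Slc25a32, the mitochondrial folate and flavin carrier, averaged 25.3 ± 5.10 in CON BAT and 10.3 ± 3.52 in CON IWAT (adjusted p = 3.21e-08). Slc25a1 was highest in BAT and lowest in muscle, and BAT and IWAT did not differ for it at the threshold (adjusted p = 0.0919). Its CON IWAT values also include CON3106 and CON3115, with 3.79 and 2.54 CPM. Slc25a44, through which branched-chain amino acids enter mitochondria of brown fat, averaged 160 ± 22.8 in CON BAT and 89.2 ± 16.7 in CON liver, also short of the threshold (adjusted p = 0.292). Slc25a42, the coenzyme A carrier, averaged 179 ± 51.4 in CON BAT and 83.6 ± 18.3 in CON liver (adjusted p = 0.158, and 0.025 without the 5 libraries).

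IWAT led for few carriers. Slc25a24, a calcium-regulated carrier that exchanges ATP-Mg for phosphate, averaged 18.4 ± 5.23 CPM in CON IWAT and 6.70 ± 1.55 in CON muscle (SD, n = 6 each, adjusted p = 0.000836, and 0.0644 without the 5 libraries). Slc25a10, the dicarboxylate carrier, averaged 87.7 ± 25.3 in CON IWAT and 37.8 ± 9.91 in CON liver, and this pair missed the threshold (adjusted p = 0.320). Slc25a40, a glutathione carrier, averaged 13.4 ± 2.70 in CON IWAT and 10.5 ± 2.52 in CON muscle, where the fitted log2 difference was -0.17 (adjusted p = 0.631).

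Between pairs of tissues, 14 of 36 carriers were higher and 7 lower in BAT than in IWAT, where 15.2% and 18.2% of all genes were. Liver had 20 higher and 8 lower than IWAT (all genes 22.9% and 26.7%), and muscle had 6 higher and 14 lower than IWAT (20.8% and 31.6%). BAT had 11 higher and 11 lower than liver (25.6% and 22.3%). Muscle had 6 higher and 16 lower than BAT (19.2% and 21.7%), and 10 higher and 22 lower than liver (27.8% and 29%). Scaling by library totals in place of TMM factors moved the median of all genes by -0.81 (log2) for liver over IWAT, -0.54 for muscle over IWAT, 0.51 for BAT over liver and -0.23 for muscle over BAT. The counts of higher and lower carriers then became 9 and 10, 5 and 19, 17 and 9, and 3 and 17 in these pairs. The shares of all genes given above belong to the TMM scale. Such shares were not computed for pairs under library totals, so these last counts cannot be read against all genes.

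Slc25a3, the phosphate carrier that supplies ATP synthase in every tissue, was counted at no more than 8 tags in any library. Its mean was 0.52 CPM in CON liver and 0.0468 in CON muscle. Its level was therefore not read from these counts. Slc25a31, an ADP/ATP translocase of the testis, reached 18 tags (2.34 CPM) in 1 MR library of BAT and 13 tags in 1 CON library.

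Some carriers in fat were highest in the libraries with the highest markers of another tissue. In IWAT, the liver carrier Slc25a47 had 55.4 CPM in MR3113 and 223 in CON3103, against 3.31 to 26.5 in the other 10 libraries. Summed hepatocyte markers (6 of 6 found) were 8190 in MR3113 and 11100 in CON3103, against 284 to 3642 in the other libraries. Slc25a13 was highest in the same 2 libraries, with 19.99 in MR3113 and 54.6 in CON3103. In BAT, Slc25a4 had 3678 CPM in CON3112, where summed muscle markers were 16200, and 847 in CON3115, where they were 89.5. Slc25a12 had 129 and 2.55 CPM in these 2 BAT libraries. Between these extremes Slc25a4 did not follow the markers closely. It had 921 CPM in MR3101 of BAT, with 2926 of muscle markers, and 1041 in CON3103, with 143.8. Whether RNA of liver or muscle gave these levels was not tested.

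**Figure D3:**
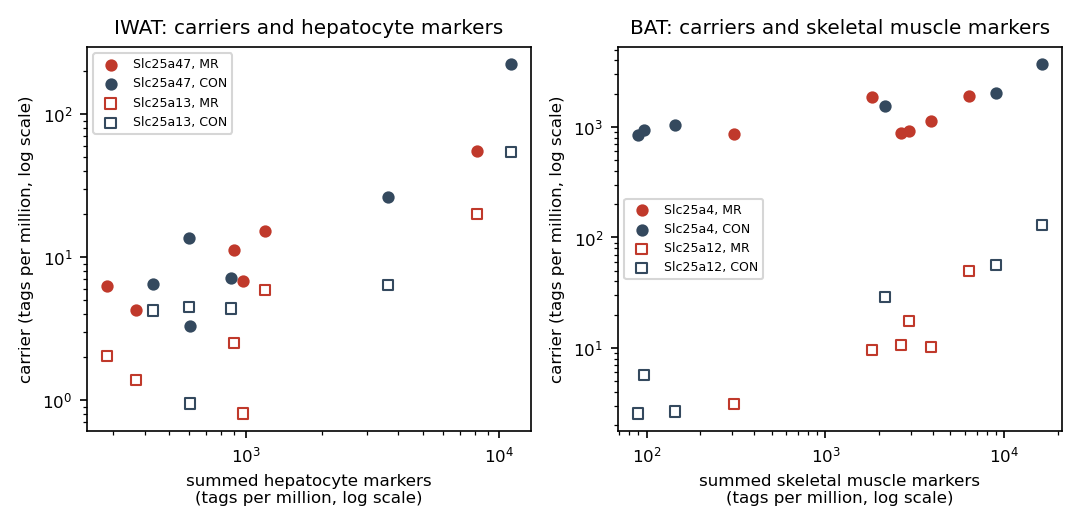
Left, Slc25a47 (circles) and Slc25a13 (squares) in the 12 IWAT libraries against summed hepatocyte markers; right, Slc25a4 (circles) and Slc25a12 (squares) in the 12 BAT libraries against summed muscle markers, MR in red and CON in dark blue, all axes in CPM on log scales. The 2 IWAT libraries with the highest hepatocyte markers (8190 CPM in MR3113 and 11100 in CON3103) hold the highest Slc25a47 and Slc25a13.

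Methionine restriction against control was then compared within each tissue. Fold changes are on the TMM scale of the fit, so they can differ from the ratio of mean CPM.

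In IWAT, the coenzyme A carrier Slc25a42, the folate carrier Slc25a32 and Slc25a34, a carrier with no settled substrate, were higher in most MR libraries, but no carrier passed the threshold. Of 32 carriers tested, 0 were called at an adjusted p under 0.05 (edgeR), where 0.027% of all genes were (0.00901% higher and 0.018% lower). At an unadjusted p under 0.05, 7 were higher and 1 lower, where 8.78% of all genes were on either side. DESeq2 called 4 carriers (3 higher and 1 lower) and limma voom 0, and the joint fit of all tissues called Slc25a24, Slc25a32, Slc25a33, Slc25a34 and Slc25a42. Of all genes, DESeq2 called 2.83% and the joint fit 3.29%. The median log2 fold change of the carriers was 0.27, with 23 of 32 above 0, beside -0.02 for all genes tested; without the 3 libraries that stand apart these medians were 0.18 and -0.06. Without MR3116 alone they were 0.02 and -0.04, with 17 of 32 carriers above 0.

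Slc25a34 had 25.2, 14.2, 19.3, 26.01 and 23.0 CPM in MR3101, MR3102, MR3104, MR3109 and MR3113, and 0 in MR3116. It had 0.446, 0.454, 0.409 and 4.08 in CON3103, CON3107, CON3112 and CON3114, and 0 in CON3106 and CON3115. The 5 MR libraries with tags lay above every CON library, and the 3 libraries at 0 were the ones that stand apart, where 0 tags allow up to 0.423 to 0.483 CPM. The log2 fold change was 4.33 ± 1.18 (SE, adjusted p = 0.184, edgeR), and 4.02 without these 3 libraries (adjusted p = 0.0685). With 1 library left out at a time it was 4.07 to 6.10, the highest without CON3114 (adjusted p = 0.0605).

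Slc25a32 ranged from 13.7 to 26.9 CPM in MR IWAT (median 22.7) and from 4.26 to 13.6 in CON IWAT (median 11.3). All 6 MR libraries lay above all 6 CON libraries; 2.35% of all genes tested in IWAT had groups that did not overlap. The log2 fold change was 1.18 ± 0.254 (SE, adjusted p = 0.136), and 1.02 without the 3 libraries (adjusted p = 0.0685). The other carrier whose groups were separate was Slc25a24, which ranged from 6.86 to 11.2 in MR IWAT (median 8.67) and from 12.5 to 26.1 in CON IWAT (median 18.3), a log2 fold change of -0.99 ± 0.298 (adjusted p = 0.237), and -0.74 without the 3 libraries (adjusted p = 0.136).

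Slc25a42 ranged from 29.1 to 124 CPM in MR IWAT (median 106) and from 7.42 to 56.1 in CON IWAT (median 28.0). MR3116 was the lowest of the MR group and lay within the CON range, and the other 5 MR libraries lay above it. The log2 fold change was 1.86 ± 0.453 (SE, adjusted p = 0.156), and 1.58 without the 3 libraries (adjusted p = 0.0689). The branched-chain amino acid carrier Slc25a44 ranged from 86.0 to 153 in MR IWAT (median 131) and from 36.5 to 125 in CON IWAT (median 84.0), with a log2 fold change of 0.71 ± 0.245 (adjusted p = 0.332), and 0.59 without the 3 libraries (adjusted p = 0.249).

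**Figure D4:**
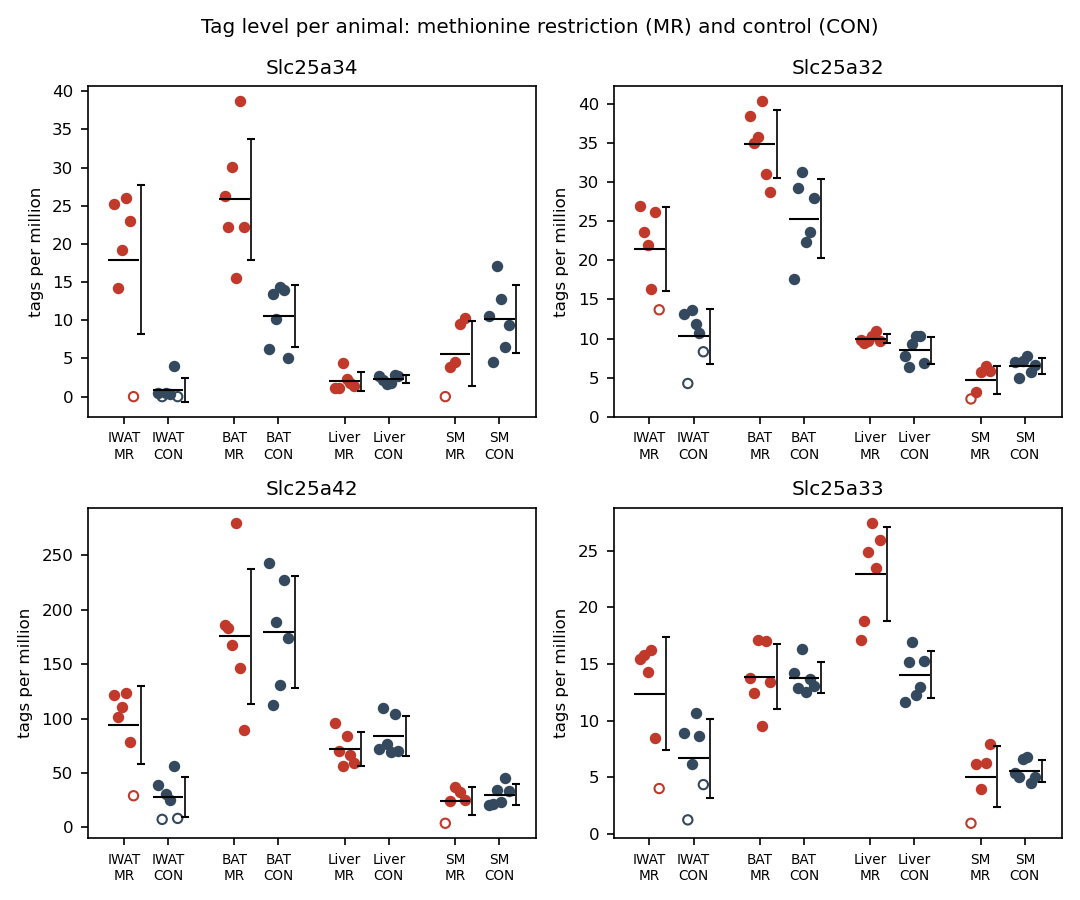
CPM of Slc25a34, Slc25a32, Slc25a42 and Slc25a33 in each library, by tissue, MR (red) to the left of CON (dark blue). Lines are group means, bars are 1 SD, and open circles are the 4 libraries that stand apart; in IWAT the filled MR circles of Slc25a34, Slc25a32 and Slc25a42 lie above all CON circles, and in liver the MR circles of Slc25a33 do.

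By role, 10 of 10 carriers of cofactors and nucleotides had a log2 fold change above 0 in IWAT, with a median of 0.82; without MR3116 these were 6 of 10 and 0.66, and without all 3 libraries 10 of 10 and 0.64. Among them Slc25a39, a glutathione carrier, had 1.06 ± 0.598 and Slc25a33, a pyrimidine nucleotide carrier, had 1.00 ± 0.408. Without the 3 libraries Slc25a39 had 0.81 and Slc25a33 0.80. The median was 0.27 for 5 amino acid carriers, 0.08 for 5 carriers of adenine nucleotides and phosphate and -0.03 for 5 carriers of di- and tricarboxylates. Slc25a5 had 0.50 ± 0.211 and Slc25a4 0.08 ± 0.257. Lists of other mitochondrial genes had larger medians than the carriers, again with 0 called. The median log2 fold change was 1.27 for 13 tricarboxylic acid cycle genes (13 above 0), 1.07 for 23 respiratory chain and ATP synthase genes (22 above 0) and 0.56 for 16 carrier-related genes that do not bear the Slc25a symbol (14 above 0). Without the 3 libraries these medians were 1.11, 0.82 and 0.46. Adenosine triphosphate synthase subunit Atp5b averaged 9676 ± 1939 CPM in MR IWAT and 4434 ± 924 in CON IWAT (SD, n = 6 each, adjusted p = 0.144), and the carrier-related gene Mcart1 averaged 744 ± 96.6 in MR IWAT and 346 ± 71.5 in CON IWAT (adjusted p = 0.148).

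The groups did not overlap in summed brown adipocyte markers in IWAT. Over the list of 7, all found, they were 826 to 3000 CPM in MR IWAT (median 2350) and 68.1 to 817 in CON IWAT (median 188). Ucp1 ranged from 707 to 2236 in MR IWAT and from 27.8 to 561 in CON IWAT. The groups of Cox8b and Dio2 were separate too. Cidea (5.47 to 43.6 in MR, 1.58 to 20.1 in CON), Ppara (44.9 to 205, 14.7 to 127) and Elovl3 (35.9 to 510, 2.82 to 91.4) overlapped. Zic1, a marker of interscapular brown fat, was at 0 in 6 of 6 MR and 5 of 6 CON libraries. Slc25a34 had 10.5 and Slc25a42 179 CPM on average in CON BAT, against 0.90 and 27.8 in CON IWAT. In bulk tissue, more cells of a type and more RNA per cell cannot be told apart, and the part of brown adipocytes in the IWAT values of Slc25a32, Slc25a34 and Slc25a42 was not tested. Summed lymphocyte markers were also uneven in IWAT, from 7.72 to 1030 in MR and from 9.72 to 2250 in CON libraries.

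In BAT, Slc25a34 was higher under methionine restriction and was the carrier that passed the threshold: 1 of 31 was called, and it was higher, where 0.575% of all genes were called higher, 0.537% lower and 1.11% in either direction. It ranged from 15.5 to 38.7 CPM in MR BAT (median 24.3) and from 5.11 to 14.3 in CON BAT (median 11.8), with every MR library above every CON library. The log2 fold change was 1.40 ± 0.262 (SE, n = 6 each, adjusted p = 0.0211, edgeR). The call was lost without MR3104 (adjusted p = 0.0562) and in the joint fit of all tissues (adjusted p = 0.415).

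The remaining BAT carriers did not pass. Slc25a35 ranged from 14.4 to 45.0 CPM in MR BAT (median 40.0) and from 49.8 to 92.7 in CON BAT (median 72.0), and its groups did not overlap, as held for 1.97% of all genes tested. Its log2 fold change was -0.86 ± 0.258 (adjusted p = 0.154). Slc25a23, the ATP-Mg carrier paralogous to Slc25a24, averaged 70.6 ± 21.3 in MR BAT and 121 ± 19.4 in CON BAT (SD, n = 6 each), a log2 fold change of -0.68 ± 0.198 (adjusted p = 0.142). Without MR3109 it was -0.86 and passed (adjusted p = 0.0257). Slc25a1 averaged 546 ± 113 in MR BAT and 824 ± 59.9 in CON BAT, and 5 of 6 MR libraries lay under every CON library (adjusted p = 0.149). Slc25a32 averaged 34.9 ± 4.37 in MR BAT and 25.3 ± 5.10 in CON BAT, a log2 fold change of 0.56 ± 0.158 (adjusted p = 0.134).

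At an unadjusted p under 0.05, 6 BAT carriers were higher and 5 lower, where 13.6% of all genes were on either side, and the median log2 fold change was 0.05, beside 0.00 for all genes tested. DESeq2 called 5 carriers, 2 higher and 3 lower, where it called 2.98% of all genes. The median was 0.23 for 10 cofactor and nucleotide carriers, 8 of them above 0, and -0.78 for 4 carriers of di- and tricarboxylates. The last median was -0.28 without CON3112, the BAT library with 16200 CPM of summed muscle markers, and -0.53 without CON3106, which had 3710 of hepatocyte markers. Slc25a44 ranged from 157 to 435 CPM in MR BAT (median 176) and from 129 to 186 in CON BAT (median 157), with MR3116 the highest (adjusted p = 0.357). Slc25a42 ranged from 89.1 to 280.0 in MR BAT and from 113 to 243 in CON BAT, and its log2 fold change was 0.05 ± 0.256. The respiratory chain list had a median of 0.01 and the tricarboxylic acid cycle list -0.08, with 0 called. Outside the symbol rule, Ucp1 averaged 4707 ± 993 in MR BAT and 2752 ± 667 in CON BAT (adjusted p = 0.0717).

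In liver, Slc25a33 came nearest to the threshold. This carrier imports pyrimidine nucleotides for mitochondrial nucleic acid synthesis. It ranged from 17.2 to 27.5 CPM in MR liver (median 24.1) and from 11.6 to 16.9 in CON liver (median 14.1). These groups did not overlap in CPM, as held for 4.8% of all genes tested in liver. The log2 ratio of mean CPM was 0.71, larger than the fold change on the TMM scale, and overlap on that scale was not examined. The log2 fold change was 0.53 ± 0.144 (SE, n = 6 each, adjusted p = 0.0691, edgeR), and it passed without MR3101 (adjusted p = 0.0327).

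Of 31 liver carriers, 0 were called, where 2.26% of all genes were (1.05% higher and 1.21% lower). At an unadjusted p under 0.05, 2 were higher and 5 lower, where 14.5% of all genes were on either side. DESeq2 called 1 carrier, Slc25a33, where it called 4.49% of all genes. The limma voom fit called 0 carriers and 2.27% of all genes. The median log2 fold change was -0.02, beside 0.01 for all genes tested. Slc25a25, another ATP-Mg carrier, averaged 12.1 ± 3.63 CPM in MR liver and 16.7 ± 5.67 in CON liver (adjusted p = 0.152). Slc25a44 averaged 83.0 ± 3.67 in MR liver and 89.2 ± 16.7 in CON liver (adjusted p = 0.253), and Slc25a42 71.8 ± 15.5 in MR liver and 83.6 ± 18.3 in CON liver (adjusted p = 0.254). The abundant liver carriers overlapped between the diets. Slc25a47 averaged 1011 ± 261 in MR liver and 966 ± 206 in CON liver, and Slc25a13 373 ± 55.4 in MR liver and 368 ± 32.9 in CON liver. Their log2 fold changes were -0.10 ± 0.188 and -0.16 ± 0.0996, with adjusted p of 0.845 and 0.501.

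In muscle, 0 of 33 carriers were called, where 0% of all genes were, and 0 had groups that did not overlap, where 0.294% of all genes had. At an unadjusted p under 0.05, 3 were higher and 0 lower, where 6.32% of all genes were on either side; DESeq2 and limma voom called 0 carriers. All 3 were highest in MR3101. Slc25a26, the S-adenosylmethionine carrier, had 116, 20.3, 13.3, 18.8 and 16.6 CPM in MR3101, MR3102, MR3104, MR3109 and MR3116, against 11.8 to 20.9 in CON muscle. Its log2 fold change was 1.65 ± 0.665 (adjusted p = 0.764), and 0.01 without MR3101. Slc25a27, an uncoupling-protein-like carrier, had 16.3 CPM in MR3101, 1.10 to 4.68 in the other MR libraries and 0.94 to 2.72 in CON muscle. Slc25a45 had 16.8 in MR3101, 2.20 to 8.91 in the other MR libraries and 1.62 to 4.85 in CON muscle. Without MR3101 the log2 fold changes of Slc25a27 and Slc25a45 were 0.49 and 0.70.

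Slc25a4 had 8847, 15310, 8537 and 9734 CPM in MR3102, MR3104, MR3109 and MR3116, and 8479 to 19570 in CON muscle. MR3101 was below all of these, with 25878 tags against 77574 to 180793 in the other MR libraries. Its log2 fold change was -0.36 ± 0.457, and -0.19 without MR3101. Slc25a38, a glycine carrier, averaged 22.4 ± 6.06 in MR muscle and 16.3 ± 7.83 in CON muscle (SD, n = 5 and 6, adjusted p = 0.766). The median log2 fold change was -0.11, beside -0.04 for all genes tested, and without MR3101 it was -0.03, beside 0.02. Among 10 cofactor and nucleotide carriers 1 was above 0 in muscle, with a median of -0.25, and without MR3101 these were 4 and -0.09.

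Slc25a10 and Slc25a5 overlapped between the diets in each tissue. Slc25a10 ranged from 58.4 to 99.5 CPM in MR IWAT (median 85.4) and from 65.0 to 136 in CON IWAT (median 83.5), and from 39.7 to 52.7 in MR liver (median 49.2) and from 25.1 to 54.1 in CON liver (median 37.99). In BAT it ranged from 3.53 to 15.9 in MR (median 5.59) and from 7.17 to 55.0 in CON libraries (median 10.6), with a log2 fold change of -1.19 ± 0.517 (adjusted p = 0.331). Its highest BAT library, CON3106, also had the highest hepatocyte markers of BAT, 3710 CPM. Slc25a5 ranged from 417 to 520 CPM in MR liver (median 473) and from 245 to 465.7 in CON liver (median 387), with a log2 fold change of 0.14 ± 0.149 (adjusted p = 0.716).

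Members below the test filter were not tested for diet. They were Slc25a3, Slc25a21, Slc25a27, Slc25a30, Slc25a31 and Slc25a48 in IWAT, and Slc25a3, Slc25a13, Slc25a25, Slc25a27, Slc25a30 and Slc25a31 in BAT. In liver they were Slc25a2, Slc25a3, Slc25a14, Slc25a27, Slc25a29, Slc25a35, Slc25a36 and Slc25a48, and in muscle Slc25a2 and Slc25a30.

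**Figure D5:**
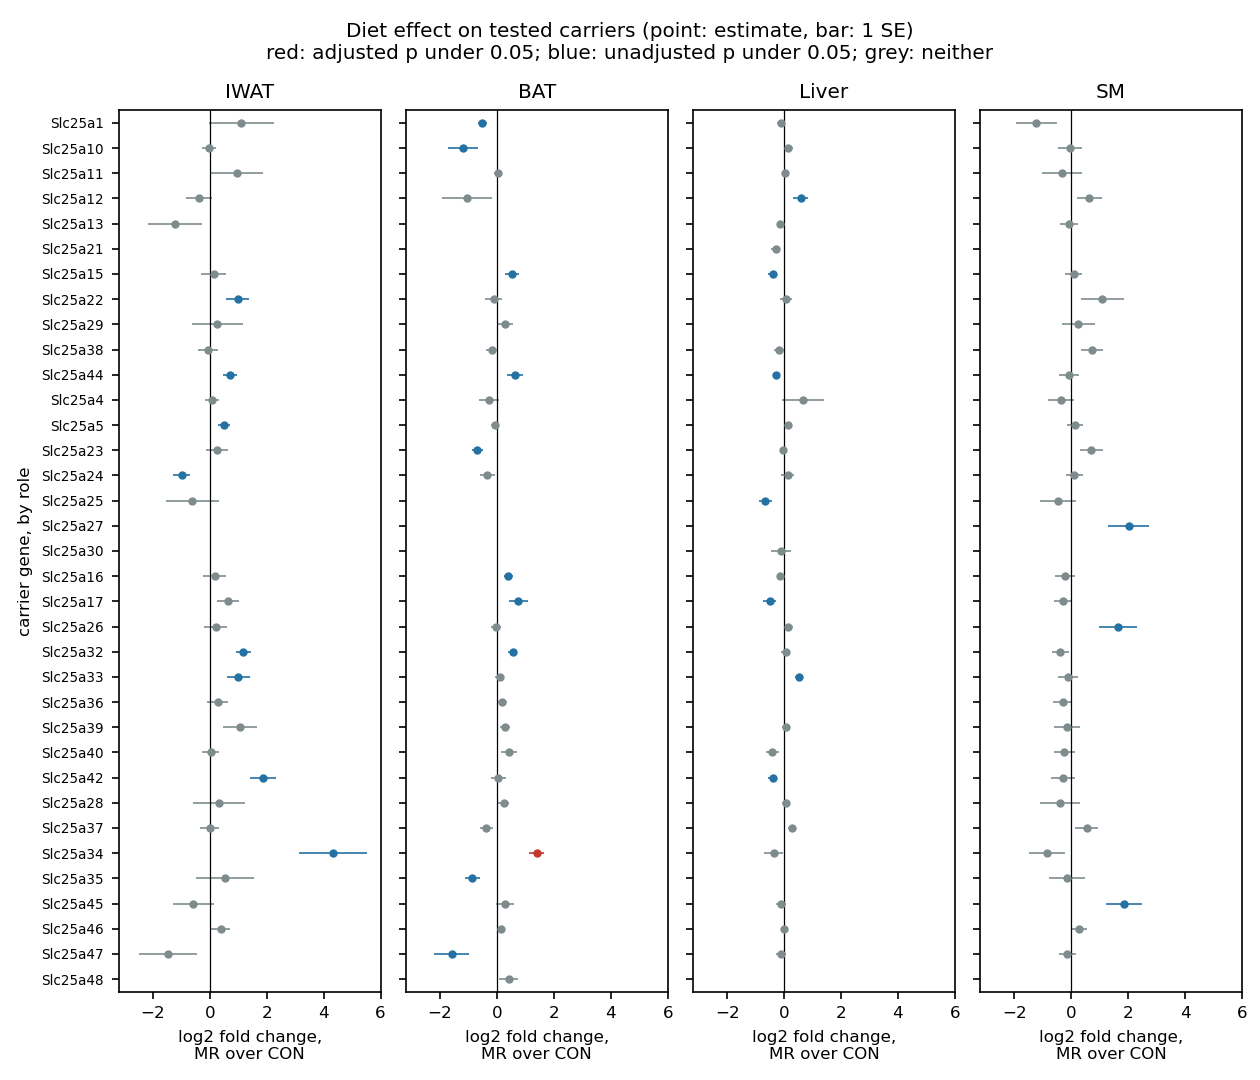
Log2 fold change of MR over CON for tested carriers in the 4 tissues, ordered by role, with bars of 1 SE. The red point is Slc25a34 in BAT; blue points had an unadjusted p under 0.05 only, and they lie to the right of 0 in IWAT except for Slc25a24.

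Slc25a26 carries S-adenosylmethionine, which is made from methionine, into mitochondria and was examined in each tissue. It averaged 21.7 ± 7.35 CPM in MR IWAT and 20.5 ± 5.48 in CON IWAT, 21.7 ± 3.60 in MR BAT and 23.7 ± 4.71 in CON BAT, and 6.29 ± 1.09 in MR liver and 5.04 ± 1.25 in CON liver (SD, n = 6 each). Its log2 fold changes in these tissues were 0.21 ± 0.411, -0.02 ± 0.177 and 0.15 ± 0.173, with adjusted p of 0.9997, 0.973 and 0.738.

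The last comparison asked whether the diet effect differed among tissues, in the joint fit of 47 libraries. Slc25a32, Slc25a34 and Slc25a42 were called, 3 of 36 carriers, where 0.524% of all genes tested were (edgeR quasi-likelihood F test, Benjamini-Hochberg). The adjusted p was 0.00335 for Slc25a32, 0.00761 for Slc25a34 and 0.0332 for Slc25a42. The effect in liver was below that in IWAT by a log2 difference of -1.17 ± 0.267 for Slc25a32, -4.75 ± 0.968 for Slc25a34 and -2.30 ± 0.510 for Slc25a42, with adjusted p of 0.0208, 0.00927 and 0.0186, where 0.591% of all genes were called. The effect in muscle was also below that in IWAT, by -1.64 ± 0.278, -5.25 ± 0.987 and -2.22 ± 0.527, with adjusted p of 0.00327, 0.00749 and 0.0423, where 0.436% of all genes were called. BAT and IWAT did not differ at the threshold for any of them (adjusted p = 0.476, 0.259 and 0.183), where 0.0517% of all genes were called. This fit shares 1 estimate of the spread over all tissues. For the diet effect in IWAT it called 3.29% of all genes, where the fit of IWAT alone called 0.027%. For Slc25a34 the SE of the IWAT effect was 1.18 in the fit of IWAT alone, above the 0.968 of its liver difference here. The differences from IWAT are to be read with that limit.

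Leaving out the 4 libraries that stand apart together with CON3107 in IWAT kept the 3 calls (adjusted p = 0.00858, 0.000241 and 0.0399), where 3.98% of all genes were called. The call for Slc25a42 depended on single animals: it was lost without any of 8 of the 12 (adjusted p from 0.0543 to 0.161). That for Slc25a34 was lost without mouse CON3112 (adjusted p = 0.0511). Leaving out mouse MR3116 gave 7 called carriers, the added ones being Slc25a24, Slc25a26, Slc25a27 and Slc25a45, where 6.18% of all genes were then called.

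The promoters of Slc25a34 and Slc25a42 are printed because both genes were called in the interaction. They run from 250 bases before to 50 bases after a start of the gene, on the minus strand of GRCm38.p6, from RefSeq: chr4:141623785-141624084 for Slc25a34 and chr8:70212232-70212531 for Slc25a42. The RefSeq span of Slc25a34 reaches to chr4:141623891, upstream of the start used for its window. RefSeq gave 42 promoters for 33 of the 43 symbols. Capitals mark a match of the nuclear receptor half-site AAGGTCA, which lies on the opposite strand as TGACCTT, 119 to 113 bases before the start used for the window of Slc25a34.
Slc25a34: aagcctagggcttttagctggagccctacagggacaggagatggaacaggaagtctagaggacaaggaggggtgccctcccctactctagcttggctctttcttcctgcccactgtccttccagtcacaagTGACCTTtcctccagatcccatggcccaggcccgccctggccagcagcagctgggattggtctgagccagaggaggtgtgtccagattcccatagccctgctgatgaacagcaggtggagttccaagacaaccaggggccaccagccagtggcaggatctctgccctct
Slc25a42: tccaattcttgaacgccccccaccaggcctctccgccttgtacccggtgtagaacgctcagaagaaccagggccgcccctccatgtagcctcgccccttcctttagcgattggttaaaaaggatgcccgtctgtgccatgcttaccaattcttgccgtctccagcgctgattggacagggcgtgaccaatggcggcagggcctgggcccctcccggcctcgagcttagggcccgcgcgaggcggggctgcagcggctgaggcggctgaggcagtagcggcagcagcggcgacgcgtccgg

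AAGGTCA was found on either strand in 4.72% of 32851 promoters of this length, and in 1 of 42 promoters of the family, that of Slc25a34. TGATGNAAN, the core of the amino acid response element, was in 3.95% of all promoters and in 0 of the family. A direct repeat of the nuclear receptor half-site was in 0.0396% and 0, and the core of the NRF1 motif in 4.6% and 2, those of Slc25a3 and Slc25a31. A match says only that these letters are present.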

How the data were processed

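Tags were counted per gene symbol by the authors, 1 table per tissue, and deposited as whole-number counts without normalization. Per the labels' protocols, libraries started from 7 to 12 ng of RNA, and only fragments with a unique place among mouse RefSeq genes were kept. Per the submitters' processing notes, the builds were mm10 and GRCm38.p1, and DESeq was used; the sources used here name neither an aligner nor whether counting used strand. Of the 43 symbols, 13 overlap another RefSeq gene, none of them Slc25a32, Slc25a33, Slc25a34 or Slc25a42. The deposited normalized signal (counts divided by a size factor per library) served as an alternative.

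Levels are tag counts scaled to the library total (CPM), as mean ± SD. Within each tissue, genes passing filterByExpr (minimum count 10) were scaled by TMM and tested by quasi-likelihood (edgeR 4.0.16 on R 4.3.3). The p-values were adjusted over all genes after Benjamini and Hochberg, with a threshold of 0.05. Standard errors were obtained from the fold change and its F statistic. Of the members, 32, 31, 31 and 33 passed the filter in IWAT, BAT, liver and SM; the 6, 6, 8 and 2 below it were not tested. Tissues and the interaction of tissue and diet were tested in 1 fit of 47 libraries and 36 members. DESeq2 1.42.0 and limma 3.58.1 were alternatives.

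The animal numbers pair the tissues, since the labels give 12 mice and 12 numbers. Libraries of the same animal did not deviate together on average, with a mean correlation of -0.0759 to 0.0627 over the pairs of tissues. No pair of libraries within a group agreed to within sampling noise. Within a tissue each mouse is 1 replicate. The test was checked on simulated data. Named members were those past the threshold, or the 4 with the smallest p in a tissue, those called in the interaction, 10 preset carriers, and the 3 with the highest fold over the next tissue and at least 20 mean tags. Values of 1 further member are not reported here. The members, lists and rules were chosen with earlier results of these data known.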

Additional observations from a re-analysis of the deposited data

Results flagged for a closer look

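In 4 of 32 groups of named carriers, 1 library lay far from the rest of its group on the log2 scale (Dixon's test, 95% level); chance flags about 1 in 20. Slc25a42 in IWAT had 29.1 CPM in MR3116, against 78.4 to 124 in the other MR libraries. Slc25a34 in IWAT had 0 tags in MR3116, against 14.2 to 26.01 CPM in the other MR libraries. Slc25a26 in muscle had 116 in MR3101, against 13.3 to 20.3 in the other MR libraries. Slc25a45 in muscle had 4.85 in CON3107, against 1.62 to 2.32 in the other CON libraries. MR3116 in IWAT and MR3101 in muscle are among the 4 libraries that stand apart, and CON3107 in muscle is not.

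The diet effect differed among tissues for Slc25a32 (adjusted p = 0.00335), Slc25a34 (adjusted p = 0.00761) and Slc25a42 (adjusted p = 0.0332) in the interaction test of edgeR. Slc25a34 was higher in 5 of 6 MR libraries of IWAT and 6 of 6 of BAT than in every CON library of the tissue.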

How the results depend on the processing

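For the diet effect, the number of carriers called changed with the tool and with the libraries fitted. DESeq2 gave 4 in IWAT, 5 in BAT and 1 in liver, where it called 2.83%, 2.98% and 4.49% of all genes. The joint fit of 47 libraries, where the spread of all tissues is shared, gave 5 in IWAT and 0 in BAT. It called 3.29% and 0.303% of all genes there. With single libraries left out, BAT gave 0 to 2 and liver 0 to 1, while IWAT and muscle gave 0. The share of all genes called was then 0.456% to 1.01% in BAT and 1.43% to 2.91% in liver. In IWAT it was 0% to 0.363%, and in muscle 0%. For the interaction, library totals gave 1 called carrier, Slc25a34 (adjusted p = 0.0608 for Slc25a32 and 0.0907 for Slc25a42; the cause was not tested), and leaving out 1 animal at a time gave 1 to 7. Library totals called 0.775% of all genes, and leaving out 1 animal called 0.171% to 6.18%. For the level by tissue the count was 33 to 38 over the alternatives and 33 to 35 with 1 animal left out. Of all genes, 73.1% to 84.6% and 72% to 81.6% were called. The animal as a replicate block left 35 carriers different among tissues and 3 in the interaction (adjusted p = 0.0153, 0.0206 and 0.0206), and changed no call. With this block 73.5% and 0.303% of all genes were called. No called direction reversed among the results recomputed. Depth limits what can be read of carriers near the floor. Why Slc25a3 was counted so low was not tested.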
